A study of Mus musculus with 22 samples.

Results

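The genes described here are 10 amino acid transporter genes (Slc3a2, Slc7a5, Slc7a6, Slc7a10, Slc7a11, Slc7a1, Slc1a4, Slc1a5, Slc38a1 and Slc38a2), chosen by name for their TPM across T-cell populations, ConA activation, B-cell stimuli and brain. They are 10 of the 24911 genes in the deposited tables, of which 20163 had a count above 0 in at least 1 library, and all 10 were measured. Because they were selected on TPM in those comparisons, the levels of the 10 genes in them are given as descriptions without a test. The 10 genes were tested only for the MUT label.

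The study profiled poly(A) RNA of mouse tissues, primary cells and a B-lymphoma line, beside chromatin accessibility data that were not analysed here, to build maps of where transcription factors bind. It holds 22 libraries, and each is the only library of its group. The CD4 T cells comprised follicular regulatory cells (Tfr), follicular helper cells (Tfh), non-Tfh cells labelled activated, and CD4+ cells. Each came as a library labelled MUT and an unmarked one. A further CD4+ library was labelled ConA-activated (concanavalin A, a lectin that activates T cells). The primary B cells comprised 6 stimulated cultures (aBCD180, aCD40+IL4, LPS+a-d-dextran, LPS alone, and LPS with IL4 or with IL21) and splenic B cells. The remaining libraries were putamen, medulla oblongata, sensorimotor cortex, back skin, basophils and CH12, a B-lymphoma line of which clone bc5 was used.

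Per the labels, Tfr cells were sorted as CD4+CD44+CXCR5+PD1+CD25+ and non-Tfh cells as CD4+CD44+CXCR5-PD1-CD25-, and mature B cells came from spleens of C57BL/6J mice by negative selection. The labels give no sort for Tfh and CD4+ cells, no meaning for MUT, and no age. Nothing in them states that libraries are from different animals. Each p-value therefore reflects the spread between these samples alone, which may be technical. Total expected counts ran from 30.8 to 147.9 M (median 46.2 M), and 3 counts of Slc7a10 corresponded to between 0.018 and 0.11 TPM. T-cell markers summed to at least 2792 TPM in the 9 T libraries and B-cell markers to at least 2239 TPM in the B libraries and CH12. Among the 4 follicular libraries the B-cell marker sum was 158 TPM in Tfr MUT, 575 in Tfr, 803 in Tfh MUT and 199 in Tfh. Tissue libraries hold several cell types, and in such bulk samples fewer cells of a type and less RNA per cell cannot be told apart.

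Amino acids enter cells through carrier proteins of several families. Slc3a2 encodes the heavy chain CD98, a single-pass glycoprotein that carries catalytic light chains of the Slc7 family to the plasma membrane and is joined to each by a disulfide bond. The light chain decides the substrate: Slc7a5 (LAT1) exchanges large neutral amino acids such as leucine, Slc7a6 and Slc7a7 exchange cationic for neutral amino acids, Slc7a8 (LAT2) carries a broad range of neutral ones, Slc7a10 (Asc-1) carries small neutral ones including glycine and D-serine, and Slc7a11 (xCT) imports cystine for glutathione synthesis in exchange for glutamate. Slc7a1 (CAT1) imports arginine and lysine without a heavy chain. Slc1a4 (ASCT1) exchanges alanine and serine, Slc1a5 (ASCT2) exchanges alanine, serine and glutamine, and Slc38a1 and Slc38a2 (SNAT1 and SNAT2) import glutamine and alanine with sodium. In activated lymphocytes these carriers supply growth, and leucine and arginine supply is read by the kinase complex mTORC1. When amino acids run short, the kinase GCN2 (Eif2ak4) raises translation of the transcription factor ATF4, which binds the amino acid response element in promoters of transporters and of amino acid synthesis enzymes.

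Promoter sequences are shown for 3 of the genes, since ATF4 target promoters carry the response element and Slc7a10 is the transcript that separates follicular from other T cells. RefSeq (GRCm38.p6, the patch release of the mm10 build named in the submitters' processing notes) gives a window of 300 bases, 250 before and 50 after the start, for 7 of the 10 genes. The element core searched was TGATGCAA, read on both strands, and it is in capitals in the gene's own 5′ to 3′ direction. Slc7a11 (chr3:50443564-50443863, minus strand) holds 2 copies, at bases 185 to 192 and, reversed, at 204 to 211. Slc1a4 (chr11:20332664-20332963, minus strand) holds 1 reversed copy at bases 247 to 254, next to its start. Slc7a10 (chr7:35186135-35186434, plus strand) holds no copy, which says only that these letters are absent from this window. The Slc7a10 and Slc7a11 windows lie inside the gene spans, so they surround starts other than the outermost ones. The Slc7a10 span begins at base 35186095, and that of Slc7a11, on the minus strand, begins at base 50499087.
Slc7a11: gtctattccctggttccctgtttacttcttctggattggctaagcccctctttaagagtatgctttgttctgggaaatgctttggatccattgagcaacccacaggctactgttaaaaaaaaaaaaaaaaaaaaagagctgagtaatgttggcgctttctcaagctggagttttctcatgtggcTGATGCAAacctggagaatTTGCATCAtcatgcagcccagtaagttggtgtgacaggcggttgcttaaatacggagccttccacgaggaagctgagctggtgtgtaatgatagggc
Slc1a4: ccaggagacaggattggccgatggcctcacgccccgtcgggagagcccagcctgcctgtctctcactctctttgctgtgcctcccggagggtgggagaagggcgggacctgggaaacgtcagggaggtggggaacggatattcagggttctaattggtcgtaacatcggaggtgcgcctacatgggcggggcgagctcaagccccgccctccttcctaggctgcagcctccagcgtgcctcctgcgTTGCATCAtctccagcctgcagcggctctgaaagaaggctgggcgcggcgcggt
Slc7a10: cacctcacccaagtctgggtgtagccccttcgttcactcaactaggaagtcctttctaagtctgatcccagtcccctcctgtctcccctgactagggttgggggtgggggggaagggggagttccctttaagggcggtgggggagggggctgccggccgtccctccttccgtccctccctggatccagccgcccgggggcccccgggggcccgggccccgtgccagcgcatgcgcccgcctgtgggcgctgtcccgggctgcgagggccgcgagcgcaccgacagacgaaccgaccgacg
These 2 genes are 28.6% of the 7 with a window, and the core occurred in 294 of all 32851 RefSeq mouse promoter windows (0.895%). A gene can have several windows. The core occurred in 5 of the 24 amino acid response genes with a window (Atf3, Chac1, Nupr1, Aars and Vldlr) and in 1 of the 35 other amino acid transporters with one (Slc7a7). The E-box CACGTG, the letters bound by Myc with Max, was in none of the 7 genes' windows and in 7.15% of all windows.

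**Figure D1:**
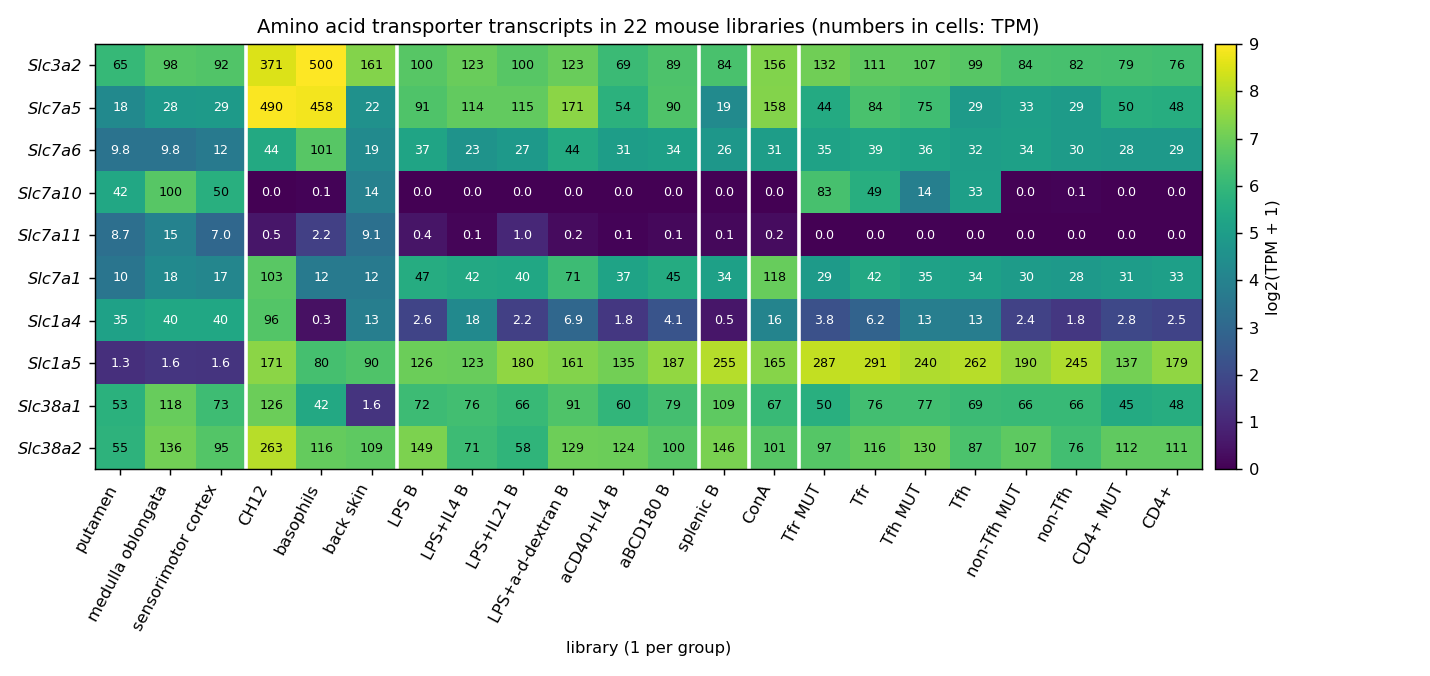
Levels of the 10 transporter transcripts (rows) in the 22 libraries (columns, 1 per group), coloured by log2(TPM + 1) with the TPM printed in each cell. Slc7a10 and Slc7a11 were near 0 in most libraries, Slc1a5 was below 1.7 TPM in the 3 brain regions, and Slc3a2, Slc38a2, Slc7a5, Slc7a1 and Slc7a6 stayed above 9 TPM in all 22.

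Slc3a2, the shared heavy chain, was present in every library, between 65.0 TPM in putamen and 500.3 TPM in basophils. In the 16 primary lymphocyte libraries it varied 2.25-fold, with a lowest value of 69.2 TPM (aCD40+IL4 B), a median of 99.5 and a highest of 156 (ConA). The basophil library and CH12 (371 TPM) stood above all 16 lymphocyte libraries. Among uncultured T cells Slc3a2 was 132 and 111 TPM in Tfr MUT and Tfr, 107 and 99.2 TPM in Tfh MUT and Tfh, 83.9 and 82.3 TPM in non-Tfh MUT and non-Tfh, and 79.4 and 76.3 TPM in CD4+ MUT and CD4+. The 4 populations thus did not overlap in Slc3a2, but the step between the means of Tfr and Tfh (1.18-fold) was about as large as the gap between the 2 Tfr libraries.

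The light chains that share Slc3a2 made up different shares from library to library. The summed TPM of 6 light chains (Slc7a5, Slc7a6, Slc7a7, Slc7a8, Slc7a10 and Slc7a11) was set against Slc3a2 in each library. TPM is scaled for transcript length, so levels of different genes can be set side by side. Slc3a2 amounted to 0.56 to 0.83 of that sum in the 6 B cultures and 0.82 in ConA cells, against 1.45 in splenic B cells and 0.60 to 1.32 in the 8 uncultured T libraries. Slc7a5 made up 83.1% of light-chain TPM in ConA cells, against 26.4 to 61.0% in the 8 uncultured T libraries. It made up 59.2 to 77.9% in the B cultures, against 32.4% in splenic B cells. In the brain the largest light-chain share was that of Slc7a10 (37.1 to 60.7%), and in back skin that of Slc7a8 (61.3%).

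**Figure D2:**
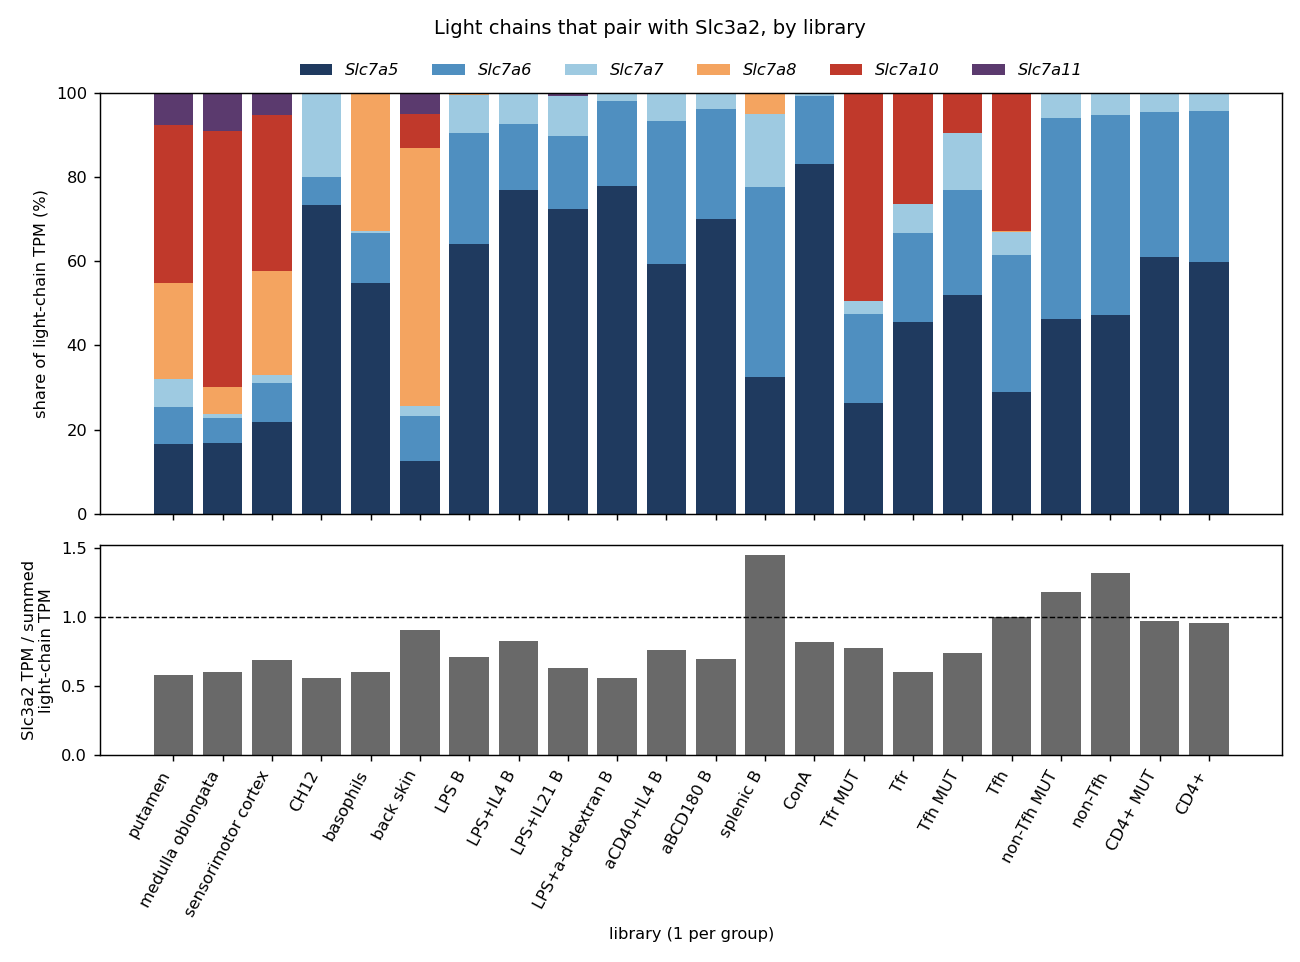
Share of the summed light-chain TPM (%) held by each of 6 light chains (upper bars, stacked to 100%) and the ratio of Slc3a2 TPM to that sum (lower bars, dashed line at 1) in each library. Slc7a10 held 49.5% in Tfr MUT, 26.4% in Tfr, 9.5% in Tfh MUT and 32.9% in Tfh, and at most 0.1% in the other lymphocyte libraries.

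Slc7a10, the carrier of small neutral amino acids known from astrocytes, neurons and fat cells, was a transcript of the brain, skin and follicular T cells. In the brain it stood at 41.6 TPM in putamen, 99.98 TPM in medulla oblongata and 49.6 TPM in sensorimotor cortex. In follicular T cells it stood at 83.2 TPM in Tfr MUT, 48.6 TPM in Tfr, 13.8 TPM in Tfh MUT and 32.6 TPM in Tfh. Back skin followed at 14.3 TPM. Those 8 libraries held all values above 0.05 TPM, and Tfr MUT ranked second among the 22, after medulla oblongata. Non-Tfh MUT (0.03 TPM), non-Tfh (0.05 TPM), CD4+ MUT (0 TPM), CD4+ (0.01 TPM) and ConA cells (0.02 TPM) were all at or under 4 counts. In the 7 B libraries the highest value was 0.04 TPM, in CH12 it was 0 and in basophils 0.05, so those levels lay under or near the 3-count floor.

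In counts, the Slc7a10 total of the Tfr pair was 6370 and that of the Tfh pair 1351, against 4 in the non-Tfh pair and 1 in the CD4+ pair. Tfr exceeded Tfh by 2.84-fold in mean TPM (65.9 against 23.2), with both Tfr libraries above both Tfh libraries. On the log2(TPM + 1) scale the differences were 5.96 for Tfr and 4.42 for Tfh against non-Tfh, and 1.54 for Tfr against Tfh.

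Within the 4 follicular libraries the order of Slc7a10 (Tfr MUT, Tfr, Tfh, Tfh MUT) was also the order of the regulatory T-cell marker sum, which was 3178 TPM in Tfr MUT, 2389 in Tfr, 594 in Tfh MUT and 974 in Tfh. Foxp3, the transcription factor that defines regulatory T cells, stood at 579 TPM in Tfr MUT, 433 in Tfr, 69.2 in Tfh MUT and 143 in Tfh. The ConA library had a regulatory marker sum of 2434 TPM with Foxp3 at 6.31 TPM and Slc7a10 at 0.02 TPM. Marker lists of the other known Slc7a10 cell types were low in follicular libraries. Astrocyte markers summed to 0.8 to 2.05 TPM there, against 603 to 3133 TPM in the brain, with the water channel Aqp4 at no more than 0.1 TPM, and adipocyte markers summed to 0.84 to 4.27 TPM, against 4939 TPM in skin.

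Tfh marker genes summed to 1339 to 2006 TPM in the 4 follicular libraries, 457 to 487 TPM in non-Tfh and 136 to 144 TPM in CD4+ libraries. The genes whose levels tracked Slc7a10 most closely over the 22 libraries were Itgb8, an integrin chain that activates TGF-beta (Pearson r = 0.98 on log2(TPM + 1)), Tshz2 (0.96) and Nrbp2 (0.95). Itgb8 stood at 48.8 TPM in Tfr MUT, 36.0 in Tfr, 18.0 in Tfh MUT and 32.2 in Tfh, at 25.9 to 73.3 TPM in the brain, and at no more than 1.59 TPM in other T cells. Over the 9 T libraries alone the closest were Fam160a1 (r = 0.996), the matrix protein Matn2 (0.996) and Mid2 (0.995). Those points share libraries, and the correlations describe mainly the split between libraries with and without the transcript.

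Slc7a10 lies on chromosome 7 (chr7:35186095-35201116, plus strand, GRCm38), and 9 other protein-coding genes with counts lie within 250 kb of it. Of these, Cebpa, the myeloid and fat-cell transcription factor gene 64.2 kb away, was singled out after its values were seen. Cebpa stood at 65.5 TPM in Tfr MUT, 78.1 in Tfr, 109.7 in Tfh MUT and 92.7 in Tfh, against 0.66 in non-Tfh MUT, 2.67 in non-Tfh, 0.03 in CD4+ MUT and 0.02 in CD4+. Both genes were thus high in the follicular libraries, but Cebpa was lower in both Tfr libraries than in both Tfh libraries, the opposite order to Slc7a10. They also parted in basophils, where Cebpa was at 899 TPM and Slc7a10 at 0.05 TPM. Cebpg, the neighbouring family member, stayed between 20.6 and 34.4 TPM in the 8 uncultured T libraries. Lrp3 overlaps the 3′ end of Slc7a10 by 239 bases and stood at 2.34 TPM in Tfr MUT, 2.39 in Tfr, 0.45 in Tfh MUT and 0.89 in Tfh, at 0 in non-Tfh and CD4+ libraries, and at 47.2 to 70.1 TPM in the brain. Whether counting used strand is not given in the sources used here, so reads of that overlap cannot be assigned with certainty.

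**Figure D3:**
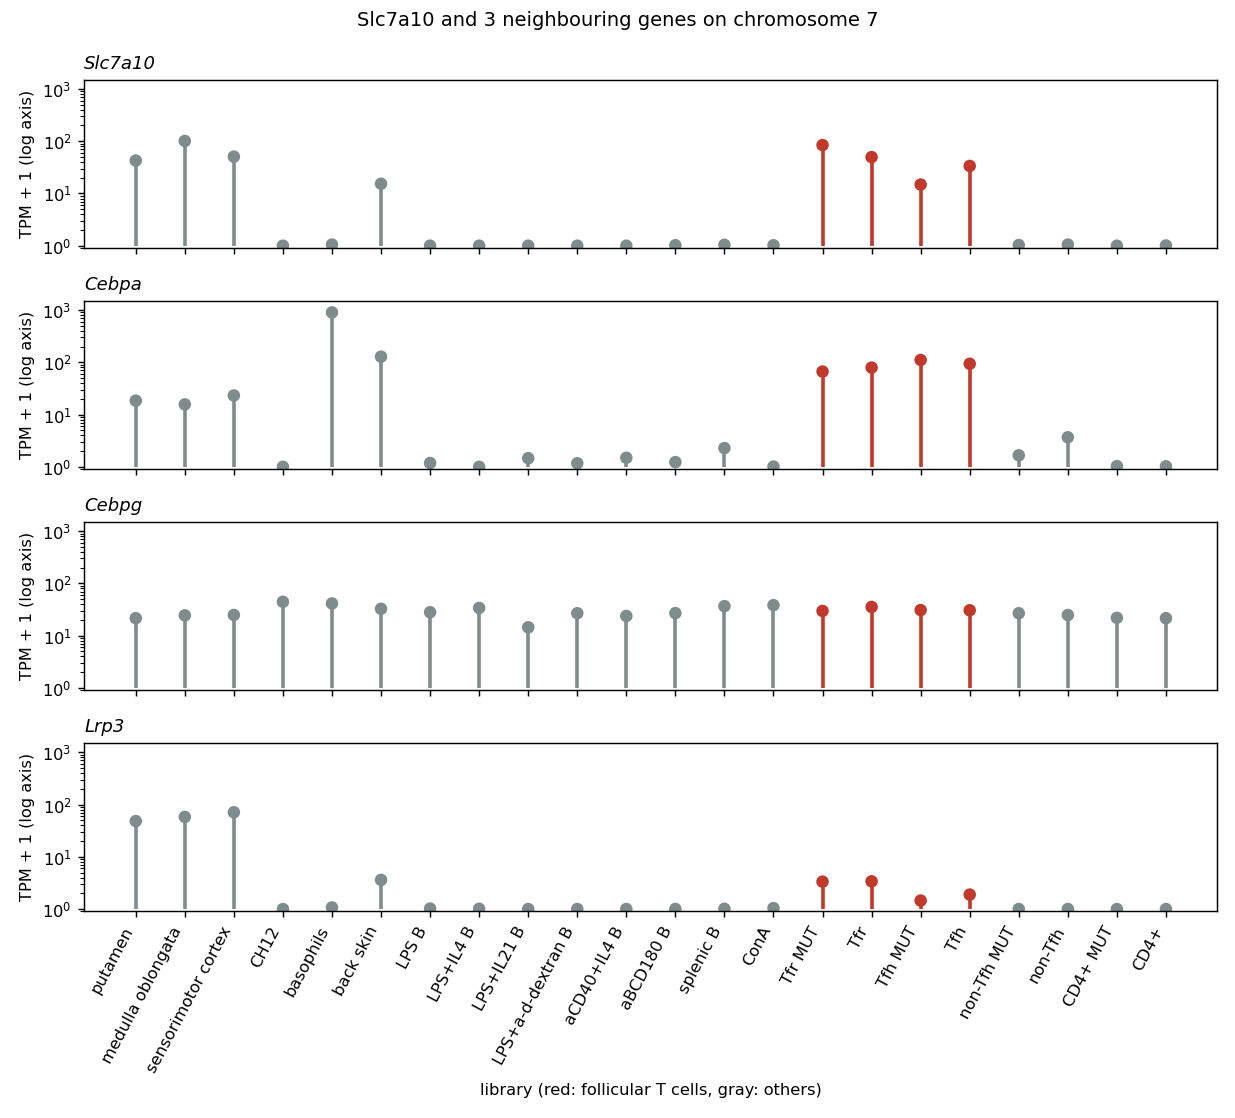
TPM + 1 (log axis) of Slc7a10 and of its neighbours Cebpa, Cebpg and Lrp3 in the 22 libraries, with follicular T cells in red. Slc7a10 and Cebpa were both high in the 4 follicular libraries and both under 3 TPM in non-Tfh and CD4+ libraries, whereas Cebpg was flat and basophils had Cebpa without Slc7a10.

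The enzyme that makes D-serine, a substrate of Slc7a10, was not called for either follicular population against non-Tfh. Srr, the serine racemase gene, stood at 9.40 TPM in Tfr MUT, 8.45 in Tfr, 9.37 in Tfh MUT and 8.98 in Tfh, against 7.59 in non-Tfh MUT and 5.90 in non-Tfh. Its difference was 0.26 ± 0.18 for Tfr minus non-Tfh (log2, SE, edgeR adjusted p = 0.35) and 0.30 ± 0.18 for Tfh minus non-Tfh (edgeR adjusted p = 0.315). In the brain Srr averaged 52.2 ± 21.9 TPM (SD, n = 3), against 7.54 ± 2.45 TPM in lymphocytes (SD, n = 16), and it rose there by 2.47 ± 0.25 (edgeR adjusted p = 5.59e-08).

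Slc7a5, the leucine carrier, made up 59.2 to 83.1% of the summed light-chain TPM in the 7 stimulated lymphocyte cultures, against 26.4 to 61.0% in the 9 uncultured lymphocyte libraries. It stood at 158 TPM in ConA cells, against a lowest value of 28.6, a median of 46.0 and a highest of 83.9 TPM in the 8 uncultured T libraries. In the B cultures it stood at 90.7 TPM with LPS, 113.9 with LPS+IL4, 114.6 with LPS+IL21, 171 with LPS+a-d-dextran, 54.2 with aCD40+IL4 and 90.0 with aBCD180, against 18.8 TPM in splenic B cells. All 6 cultures lay above splenic B cells, on average 5.64-fold (2.35 on the log2(TPM + 1) scale), and ConA cells lay 3.23-fold above the uncultured T mean and above all 8 of those libraries. Y-linked Ddx3y stood at 27.3 TPM in ConA cells, against at most 0.1 in the 8 uncultured T libraries. It stood at 103.6 TPM in splenic B cells and 42.8 with LPS+IL21, against at most 0.11 in the other B cultures. Effective transcript lengths ran 49.0 bases under the lengths in ConA, splenic B and LPS+IL4 libraries (48.56 to 48.57 in the other lymphocytes). The part of sex and processing in the transporter levels was not tested.

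A size rule was used for comparisons of levels, both those with 1 library on a side and those with more. A gene met it when every library of a side differed from all of the other by at least 1 on the log2(TPM + 1) scale. At least 10 TPM was also required in every library of the higher side. For this rule, all genes means those with at least 10 TPM in every library of at least 1 side (7777 to 9441 genes by comparison). The 10 genes are counted whole, though Slc7a11 never reached that level, and Slc7a10 and Slc1a4 did so only in some comparisons. Slc7a5 was the 1 of 10 genes that met it upward in the 6 B cultures, where 2.67% of all genes did, and none met it downward (5.54% of all genes). Slc7a5 missed it in ConA cells by its distance to Tfr, and without the Tfr library Slc7a5 met it as well, which brought the ConA count to 2.

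Between the cultures, Slc7a5 was lowest with aCD40+IL4 and highest with LPS+a-d-dextran. None of the 10 genes met the size rule for aCD40+IL4 against the other 5 cultures, which 1.77% of all genes met upward and 1.65% downward. None met it for LPS+a-d-dextran (0.0257% and 0.681%), LPS (0.0862% and 0.0%), LPS+IL21 (0.974% and 0.32%) or aBCD180 (0.699% and 0.175%) against the other cultures. Proliferation markers summed to 242 TPM with aCD40+IL4 and to 1062 to 1735 TPM in the other cultures, against 103 TPM in splenic B cells. Their part in the levels was not tested.

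Outside the primary lymphocytes Slc7a5 was highest of all, at 490 TPM in CH12 and 458 TPM in basophils. Slc7a5, Slc3a2 and Slc1a4 met the size rule upward in CH12 against the 16 lymphocyte libraries (3.66% of all genes upward, and 1.15% downward with none of the 10). In basophils Slc7a5, Slc3a2 and Slc7a6 met it upward (8.33%) and Slc7a1 downward (3.57%). In the brain Slc7a5 stood at 18.3 to 29.3 TPM and in back skin at 22.2 TPM, which overlaps the lymphocyte range of 18.8 to 171 TPM.

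Within the uncultured T cells Slc7a5 differed most inside the Tfr and Tfh pairs, which overlap each other, while the non-Tfh and CD4+ pairs were close and did not overlap. It stood at 44.4 TPM in Tfr MUT and 83.9 in Tfr, 75.3 in Tfh MUT and 28.6 in Tfh, 32.9 in non-Tfh MUT and 29.4 in non-Tfh, and 49.8 in CD4+ MUT and 47.7 in CD4+. The 2 libraries with the higher values, Tfr and Tfh MUT, were also those with the higher proliferation marker sums among follicular cells (548 and 637 TPM, against 265 in Tfr MUT and 267 in Tfh) and with the higher B-cell marker sums. Their part in the Slc7a5 values was not tested.

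Slc7a6, the light chain for arginine exchange, was the least variable among uncultured T cells, from 28.1 to 39.1 TPM over 8 libraries. ConA cells (30.9 TPM) lay inside that range. The B cultures spanned 23.5 to 44.3 TPM, against 26.3 TPM in splenic B cells. It was highest in basophils (101 TPM, 3.13-fold over the lymphocyte mean) and low in the brain (9.76 to 12.1 TPM, against 23.5 to 44.3 TPM in lymphocytes, with no overlap).

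Slc7a11, the cystine importer, was highest in the brain and skin. It stood at 8.72 TPM in putamen, 15.0 in medulla oblongata, 6.95 in sensorimotor cortex, 9.08 in back skin and 2.25 in basophils. All 8 uncultured T libraries were at 0.01 to 0.03 TPM, and ConA cells were at 0.24. In B cells the highest value was 1.02 TPM with LPS+IL21, against 0.15 TPM in splenic B cells. Over the 22 libraries genes with levels close to it were Npr2 (r = 0.98) and Rhou (0.97), which again separate tissues from cells.

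Slc7a1, the arginine and lysine importer, was the 1 of 10 genes that met the size rule in ConA cells, where 2.86% of all genes met it upward and 10.9% downward, and none of the 10 met it downward. It stood at 118 TPM in ConA cells, against a lowest value of 28.4, a median of 31.8 and a highest of 42.4 TPM in the 8 uncultured T libraries, a difference of 1.84 on the log2(TPM + 1) scale. In the B cultures it stood at 47.0 TPM with LPS, 42.3 with LPS+IL4, 39.9 with LPS+IL21, 71.5 with LPS+a-d-dextran, 36.5 with aCD40+IL4 and 45.0 with aBCD180, against 33.6 TPM in splenic B cells. All 6 cultures lay above splenic B cells, by 1.40-fold on average. The differences of ConA and splenic B cells in Ddx3y and effective length hold here too, and their part was not tested. Basophils (12.1 TPM), back skin (11.8 TPM) and the brain (10.4 to 18.3 TPM) lay below all 16 lymphocyte libraries.

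Slc1a4 is the serine and alanine exchanger whose window holds the core letters by its start, and their use by ATF4 was not tested. It spanned the widest range after Slc7a10 among the transporters that passed 10 TPM in some lymphocyte library. In B cells it stood at 2.63 TPM with LPS, 18.4 with LPS+IL4, 2.24 with LPS+IL21, 6.94 with LPS+a-d-dextran, 1.75 with aCD40+IL4 and 4.08 with aBCD180, against 0.47 TPM in splenic B cells. LPS+IL4 lay 5.21-fold above the mean of the other cultures and met the size rule, which 3.7% of all genes did in that library (2.82% downward, with none of the 10). The other culture with IL4 in its label, aCD40+IL4, had the lowest Slc1a4 of the 6. Erythroid markers summed to 3.45 TPM with LPS+IL4, against 1224 to 11050 TPM in the other 5 cultures, and their part in the LPS+IL4 values was not tested. ConA cells stood at 15.6 TPM, above all 8 uncultured T libraries, and CH12 at 95.7 TPM, 15.6-fold over the lymphocyte mean.

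In uncultured T cells Slc1a4 marked the Tfh pair. It stood at 3.75 TPM in Tfr MUT and 6.23 in Tfr, 13.5 in Tfh MUT and 12.98 in Tfh, 2.43 in non-Tfh MUT and 1.76 in non-Tfh, and 2.82 in CD4+ MUT and 2.55 in CD4+. Tfh lay 6.32-fold above non-Tfh in mean TPM and Tfr 2.38-fold, and Tfr was at 0.377 of Tfh. Slc1a4 thus ran opposite to Slc7a10 between the follicular populations. These 2 were the genes of 10 that met the size rule for Tfh against non-Tfh (2.88% of all genes upward, 0.708% downward) and for Tfh against CD4+ (7.86% and 1.79%). Without the unmarked Tfh library Slc7a5 met it too for Tfh against non-Tfh. On the log2(TPM + 1) scale it was 6.254 in Tfh MUT, against 5.083 in non-Tfh MUT and 4.925 in non-Tfh. Slc7a10 alone met it for Tfr against non-Tfh (5.37% and 1.9%) and for Tfr against CD4+ (9.77% and 2.44%). Without the Tfr MUT library Slc7a5 met it too for Tfr against non-Tfh, a count of 2, and without the CD4+ library Slc1a5 met it for Tfr against CD4+, again a count of 2. None met it for Tfr against Tfh (0.756% and 0.57%) or non-Tfh against CD4+ (2.2% and 0.331%), but without the unmarked library of either follicular population the Tfr against Tfh count was 2 (Slc7a10 and Slc1a4). The pairs share libraries, so these counts are not independent.

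In the brain Slc1a4 stood at 34.9 to 40.0 TPM, above all 16 lymphocyte libraries (0.47 to 18.4 TPM), while Slc1a5 was almost absent there. Slc1a5, the glutamine exchanger, stood at 1.34 TPM in putamen, 1.65 in medulla oblongata and 1.56 in sensorimotor cortex, against a lowest value of 123, a median of 184 and a highest of 291 TPM in the 16 lymphocyte libraries. It was the 1 of 10 genes that met the size rule between brain and lymphocytes (7.28% of all genes downward, and 22.2% upward with none of the 10). Slc1a4 and Slc7a6 missed the rule by their distance to LPS+IL4 B, and the count without that library was 3. It was 2 without putamen (with Slc1a4) and 2 without sensorimotor cortex (with Slc7a6). Slc1a4 was 6.23-fold higher in mean TPM in brain than in lymphocytes, and Slc1a5 was at 0.00767 of the lymphocyte mean.

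Within lymphocytes Slc1a5 was the most abundant of the 10 in uncultured T cells and was no higher in stimulated cells. It stood at 287 and 291 TPM in Tfr MUT and Tfr, 240.3 and 262 TPM in Tfh MUT and Tfh, 189.5 and 245 TPM in non-Tfh MUT and non-Tfh, and 137 and 179 TPM in CD4+ MUT and CD4+. ConA cells (165 TPM) lay inside that range. The 6 B cultures stood between 123 and 187 TPM, all below splenic B cells at 255 TPM. Basophils (79.8 TPM) and back skin (90.0 TPM) lay below all lymphocytes.

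Slc38a1 and Slc38a2, the sodium-coupled importers, were present in all lymphocyte libraries. In the 16 lymphocyte libraries Slc38a1 spanned 44.8 to 109 TPM (2.44-fold) and Slc38a2 58.4 to 149 TPM (2.55-fold). All 6 B cultures (59.7 to 91.1 TPM) lay below splenic B cells (109 TPM) in Slc38a1, and ConA cells lay inside the T range in both genes. Slc38a1 was at 1.56 TPM in back skin, against a mean of 69.7 TPM in lymphocytes, and met the size rule there together with Slc7a1 (9.97% of all genes downward, and 19.0% upward with none of the 10). Slc38a2 stood at 55.2 to 263 TPM in all 22 libraries and met the size rule in none of the 18 comparisons.

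The MUT label, which the rule did not use, was tested over the 4 MUT and 4 unmarked T libraries with population as a term. Of 9 transporters with enough counts (Slc7a11 was left out), edgeR called none, DESeq2 none and limma none, and none had an unadjusted p under 0.05. Among all 13064 genes edgeR called 0 (0.0%), and 192 (1.47%) had an unadjusted p under 0.05. The fitted log2 differences, MUT minus unmarked, were 0.14 ± 0.10 for Slc3a2, 0.20 ± 0.32 for Slc7a5, 0.06 ± 0.08 for Slc7a6 and -0.22 ± 0.50 for Slc7a10 (SE). They were -0.10 ± 0.10 for Slc7a1, 0.01 ± 0.20 for Slc1a4, -0.20 ± 0.12 for Slc1a5, -0.10 ± 0.11 for Slc38a1 and 0.24 ± 0.13 for Slc38a2. The adjusted p was 1.0 for all 9 by edgeR. The wide errors of Slc7a10 and Slc7a5 go with values that ran in opposite directions in the Tfh and Tfr pairs. Slc1a5 was called only when Tfh MUT and Tfr were both left out (edgeR adjusted p = 0.03).

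B cells were fitted against T cells over 7 and 9 libraries, with culture as a term. ConA is the only cultured T library and splenic B the only uncultured B library, so the fitted difference rests largely on them. Since ConA and the B stimuli are among the comparisons the genes were selected on, the fit is given for the 10 genes as a description, without a test. Slc7a1 had a log2 difference of -0.83 ± 0.25 (SE), which was -0.02 without ConA and -1.63 without splenic B cells. Its plain means were 45.1 ± 12.5 TPM in B cells (SD, n = 7) and 42.2 ± 28.9 TPM in T cells (SD, n = 9), so the plain means and the fitted difference, which allows for culture, differ in sign.

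The fitted difference was -0.61 ± 0.21 for Slc3a2, -1.18 ± 0.43 for Slc7a5, -0.34 ± 0.17 for Slc7a6 and -2.65 ± 1.05 for Slc1a4. For Slc7a5, as for Slc7a1, the plain means had the other sign. They were 93.4 ± 48.4 TPM in B cells (SD, n = 7) and 61.1 ± 41.2 TPM in T cells (SD, n = 9). Slc7a10 differed by -7.32 ± 4.31, where the fitted value of a gene near 0 in all B libraries depends on the prior count. The values were 1.54 ± 0.68 for Slc7a11, -0.17 ± 0.21 for Slc1a5, 0.28 ± 0.19 for Slc38a1 and 0.05 ± 0.25 for Slc38a2. Slc1a5 changed sign without ConA (0.09), and Slc38a1 (-0.15) and Slc38a2 (-0.26) without splenic B cells.

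**Figure D4:**
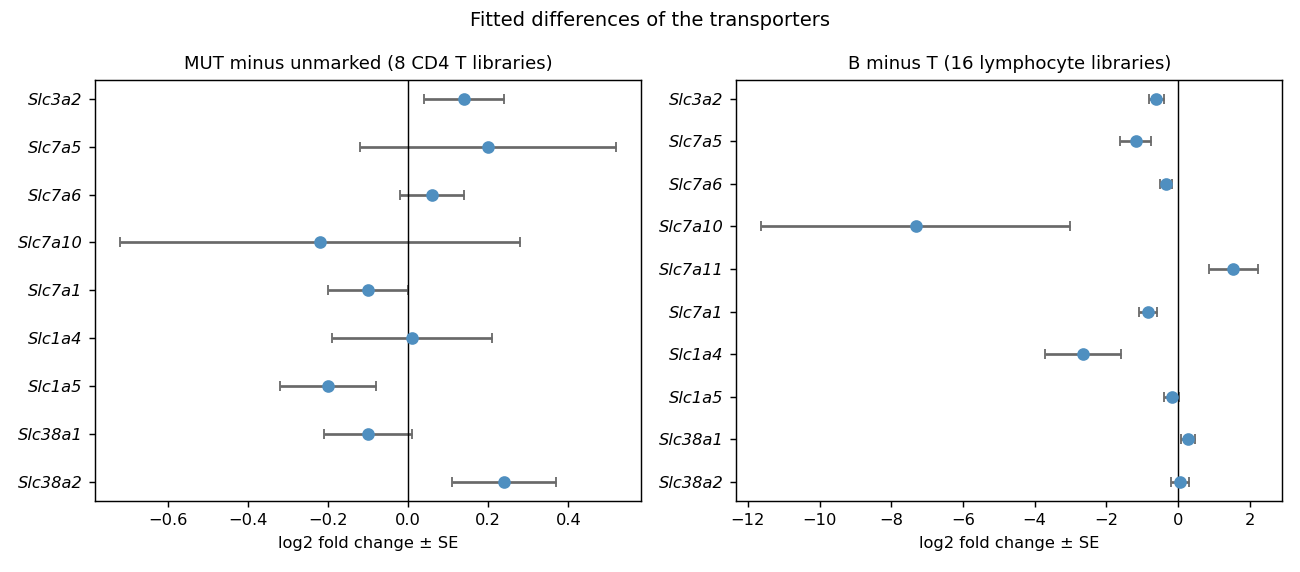
Fitted log2 fold changes (points) with their SE (bars) for the MUT label in 8 CD4 T libraries (left, 9 genes) and for B cells minus T cells in 16 lymphocyte libraries (right, 10 genes). The MUT values lie between -0.22 and 0.24, and Slc7a10 at -7.32 in B minus T has the widest error.

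Around the transporters, genes of the amino acid response were examined from a list of 29 ATF4 pathway genes. Between 7 stimulated cultures and 9 uncultured lymphocyte libraries, with lineage as a term, 21 of 29 were called higher in culture and 0 lower by edgeR, with a list median of 1.76 against 0.02 for all genes tested (12.7% of all genes higher, 8.79% lower). The serine synthesis enzyme Psat1 rose by 2.84 ± 0.54 (209 ± 90.2 TPM in culture and 70.1 ± 44.6 TPM uncultured, SD, edgeR adjusted p = 0.00341). The mitochondrial folate enzyme Mthfd2 rose by 2.68 ± 0.45, and both were called under all 20 alternatives. Asparagine synthetase Asns rose by 5.78 ± 1.03 (edgeR adjusted p = 0.00245), the glutathione-cleaving enzyme Chac1 by 4.62 ± 0.85 and the pseudokinase Trib3 by 3.14 ± 0.81. Atf4 itself rose by 0.74 ± 0.22 (edgeR adjusted p = 0.0271).

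The response genes were not even over the cultures. Asns stood at 178 TPM with LPS+IL4 and 119 TPM in ConA cells, against 8.73 to 50.3 TPM in the other cultures. It stood at 0.01 to 8.04 TPM in the 9 uncultured lymphocyte libraries (1.37 in splenic B cells). In the 5 B cultures other than LPS+IL4, Chac1 (1.02 to 3.06 TPM) lay inside its uncultured lymphocyte range (0.19 to 5.37 TPM). Trib3 stood at 19.3 TPM with LPS+IL4 and 34.7 TPM in ConA cells. In the other cultures Trib3 (1.01 to 2.77 TPM) also lay inside its uncultured lymphocyte range (0.84 to 9.19 TPM). LPS+IL4 and ConA were also the cultures with the highest Slc1a4. Without ConA, 10 of the 29 were called, and Asns (edgeR adjusted p = 0.164), Atf4 (edgeR adjusted p = 0.8), Chac1 and Trib3 were not. Chac1 was not called by DESeq2 and Atf4 not by limma. ConA, LPS+IL21 B and splenic B were the 3 lymphocyte libraries with the Y-linked gene Ddx3y above 10 TPM (at most 0.11 TPM in the others), so sex differs between the libraries of the culture and lineage fits, and its part was not tested. LPS+IL4 B, ConA, splenic B and CH12 were the 4 libraries whose effective transcript lengths ran 49.0 bases under the lengths (48.56 to 48.57 in the others), and the part of that processing difference was not tested.

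**Figure D5:**
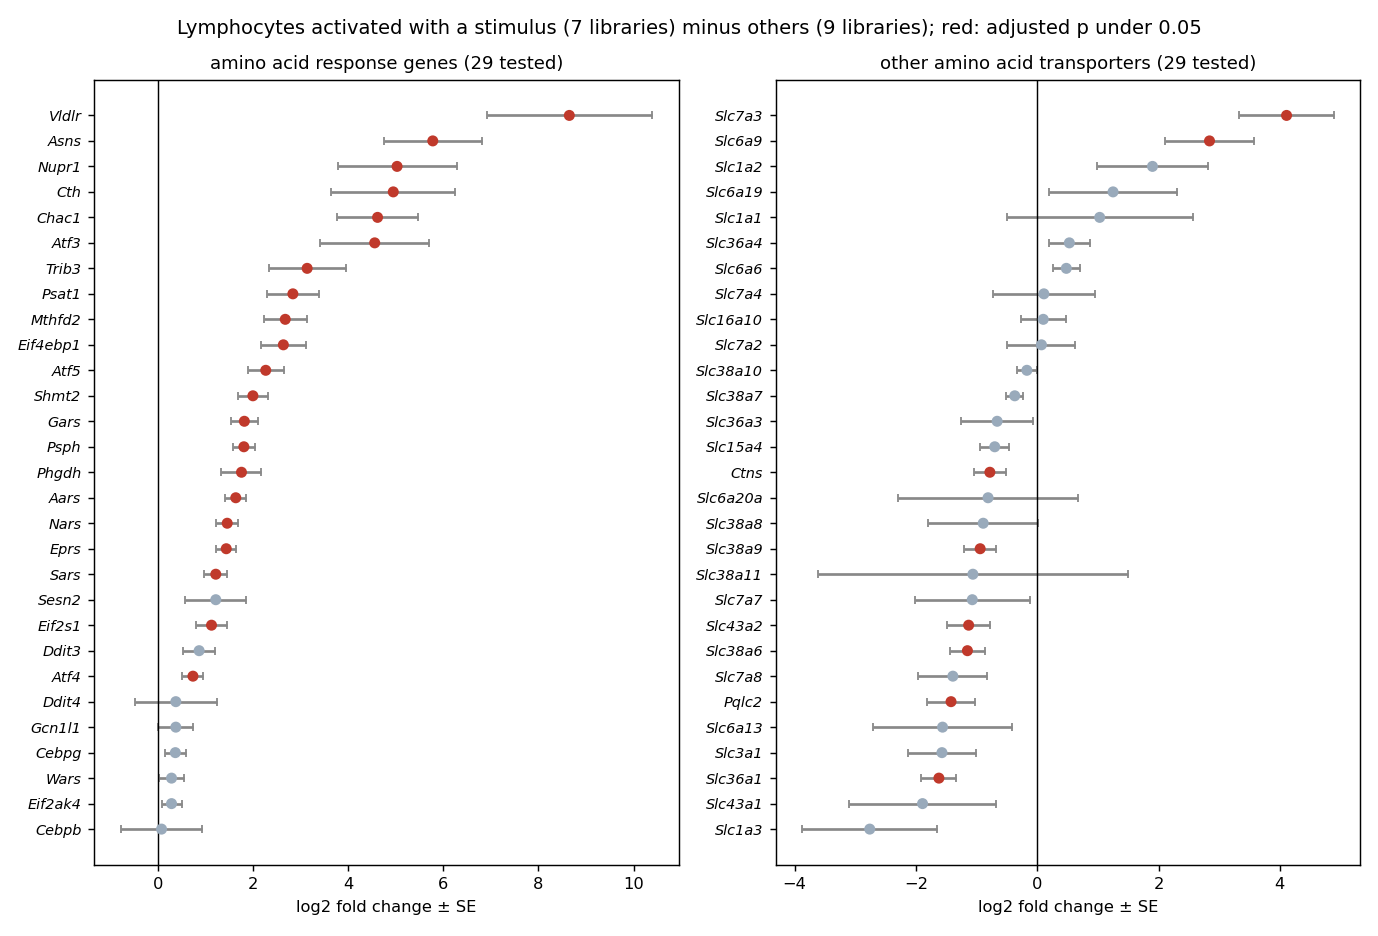
Fitted log2 fold changes (points, SE as bars) for 29 amino acid response genes (left) and 29 other amino acid transporters (right) in 7 stimulated lymphocyte cultures minus 9 uncultured libraries, with genes at an adjusted p under 0.05 in red. All 21 called response genes lie right of 0, while 2 called transporters lie right and 6 left of it.

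Of 48 other amino acid transporters listed, 29 had enough counts. In culture 2 of these were called higher and 6 lower (12.7% and 8.79% of all genes), with a list median of -0.78. The cationic carrier Slc7a3 rose by 4.11 ± 0.78 (11.4 ± 8.71 TPM in culture and 0.967 ± 0.438 TPM uncultured, SD) and the glycine carrier Slc6a9, named after its values were seen because it lies under 5 TPM, by 2.84 (3.36 ± 4.42 TPM in culture and 0.848 ± 0.6 TPM uncultured). The lysosomal and proton-coupled carrier Slc36a1 fell by 1.62 ± 0.29 (6.39 ± 2.06 TPM in culture and 20.2 ± 3.48 TPM uncultured, edgeR adjusted p = 0.00245) and was called under all 20 alternatives. Pqlc2 and Slc38a9, both carriers of the lysosomal membrane, fell (-1.42 and -0.94), as did Slc43a2 (-1.13 ± 0.36), Slc38a6 (-1.15) and the cystine exporter of lysosomes, Ctns (-0.78). Myeloid markers summed to 473 TPM in splenic B cells, which held the highest Pqlc2 (43.5 TPM) and Slc38a9 (32.4 TPM) of the 16 libraries, and to 7.58 to 51.9 TPM in the other 15. Their part was not tested. Without ConA the calls were 0 higher and 7 lower, so Slc7a3 and Slc6a9 were lost, and without splenic B cells 5 higher and 1 lower. Pqlc2 and Slc43a2 were lost without either of these libraries, Ctns was called under 12 of 20 alternatives, and Slc38a6 and Slc38a9 without splenic B cells.

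Enzymes that use the imported amino acids rose in culture in 8 of 21 cases and fell in none. The branched-chain transaminase Bcat1 rose by 4.39 ± 1.23, alanine transaminase Gpt2 by 3.57 ± 0.68 and aspartate transaminase Got1 by 2.18 ± 0.29 (107 ± 48.2 TPM in culture and 41.5 ± 10.5 TPM uncultured, SD). Gpt2 was also among the 3 genes whose levels ran closest to Slc1a4 over the 22 libraries (r = 0.90, with Uba3 and Dync2li1 at 0.91). Of 30 genes of mTORC1 and its amino acid sensors, 4 were called higher and 3 lower, which is near the share of all genes (12.7% and 8.79%). The leucyl-tRNA synthetase Lars rose by 1.24 ± 0.23 and the leucine-sensor relative Sesn1 fell by 1.29 ± 0.38. Myc rose by 1.39 ± 0.42 (edgeR adjusted p = 0.0284), and was not called without ConA or by limma. Without ConA, enzyme calls were 5 higher and 0 lower, without Gpt2, and without splenic B cells 5 higher and 1 lower. Without splenic B cells the mTORC1 calls were 2 higher and 1 lower, and Sesn1 and Bcat1 were not among them.

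Between T populations the same lists held fewest calls for Tfr minus Tfh and for non-Tfh minus CD4+. Of 20 enzymes tested that use imported amino acids, 3 were called higher and 0 lower for Tfr minus non-Tfh. The enzyme calls were 1 and 1 for Tfh minus non-Tfh, 6 and 2 for Tfr minus CD4+, and 3 and 2 for Tfh minus CD4+. The amino acid carrier Slc36a4 was higher in both follicular populations than in non-Tfh. It averaged 17.5 ± 2.64 TPM in Tfr and 8.09 ± 0.0919 TPM in non-Tfh (SD, n = 2), a rise of 0.92 ± 0.13 (edgeR adjusted p = 0.00863). In Tfh it averaged 13.8 ± 0.0495 TPM, a rise of 0.61 ± 0.13 (edgeR adjusted p = 0.0456). The Tfh call held under 4 of 13 alternatives. The leucine carrier Slc43a1 rose by 4.28 ± 0.79 in Tfh against CD4+ (11.4 ± 6.65 TPM in Tfh and 0.52 ± 0.0283 TPM in CD4+), a call lost without either CD4+ library. Of the 22 other transporters tested, 3 were called higher for Tfr minus non-Tfh, 1 for Tfh minus non-Tfh, and 0 for Tfr minus Tfh (5 at an unadjusted p under 0.05, DESeq2 and limma 0). The calls were 4 higher and 3 lower for Tfr minus CD4+, 3 and 1 for Tfh minus CD4+, and 0 for non-Tfh minus CD4+ (5 at an unadjusted p under 0.05, DESeq2 2 higher and 1 lower, limma 0). Both Tfr and Tfh calls of Slc36a4 against non-Tfh were lost without either non-Tfh library. Over all genes edgeR called 7.88% higher and 6.71% lower for Tfr minus non-Tfh, 4.03% and 2.56% for Tfh minus non-Tfh, 16.8% and 13.6% for Tfr minus CD4+, 15.3% and 11.2% for Tfh minus CD4+, and 3.23% and 0.62% for non-Tfh minus CD4+.

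Odc1, the ornithine decarboxylase that uses a product of arginine, stood at 572 TPM in Tfr MUT, 458 in Tfr, 344 in Tfh MUT and 360.3 in Tfh, against 124 in non-Tfh MUT and 83.0 in non-Tfh. It rose by 2.15 ± 0.19 in Tfr (edgeR adjusted p = 0.00312) and by 1.65 ± 0.19 in Tfh (edgeR adjusted p = 0.0112). The Tfr call was lost without non-Tfh MUT and the Tfh call without either non-Tfh library. Rragd, a Rag GTPase that tethers mTORC1 to lysosomes, stood at 31.6 TPM in Tfr MUT and 22.1 in Tfr, against 2.85 in Tfh MUT and 3.42 in Tfh. It rose by 3.02 ± 0.35 in Tfr minus Tfh (edgeR adjusted p = 0.0404, where 0.107% of genes were called higher and 0.291% lower), a call held under 7 of 13 alternatives and lost without any of the Tfr, non-Tfh or CD4+ libraries. Psat1 rose by 1.14 ± 0.27 and Sesn2 by 1.46 ± 0.28 in Tfr minus non-Tfh. They were the 2 of 27 response genes called there, which is near the share of all genes called higher (7.88%). Both were lost without either non-Tfh library, Psat1 also without Tfr, CD4+ or CD4+ MUT and Sesn2 without Tfr MUT. In Tfh minus non-Tfh edgeR called 0 response genes (3 at an unadjusted p under 0.05, DESeq2 2, limma 0). Glutamine synthetase Glul fell by 0.60 ± 0.10 in Tfh minus non-Tfh (44.8 ± 3.22 TPM in Tfh and 60.8 ± 2.76 TPM in non-Tfh), a call lost by limma and without any of the non-Tfh or CD4+ libraries.

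For B minus T, 5 of 29 other transporters were called higher and 2 lower (9.29% and 11.1% of 13978 genes). The lysosomal carriers Pqlc2 (2.70 ± 0.37), Slc15a4 (2.12 ± 0.24, 60.9 ± 37.3 TPM in B cells and 19.7 ± 3.27 TPM in T cells, edgeR adjusted p = 1.81e-05) and Slc38a9 (1.17 ± 0.25) rose. Slc36a4 fell by 1.10 ± 0.34, a call held under 13 of 20 alternatives. Of 29 response genes 1 was called higher, the sensor kinase gene Eif2ak4 (0.65 ± 0.21), and 8 lower, among them Ddit3 (-1.59 ± 0.34) and Trib3 (-2.81 ± 0.84), and without ConA the calls were 1 and 1. Ddit3 and Trib3 were lost without ConA, and Slc38a9, Eif2ak4 and Trib3 without splenic B cells. Argininosuccinate synthase Ass1, which remakes arginine from citrulline, averaged 33.3 ± 18.9 TPM in B cells and 331 ± 105 TPM in T cells and fell by 2.77 ± 0.67 (edgeR adjusted p = 0.00769), a call lost without splenic B cells. Without ConA other transporters held 8 calls higher and 0 lower, and without splenic B cells 2 and 2.

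In brain minus lymphocytes most listed transporters differed, as did most genes (40.7% called higher, 34.2% lower). Of 40 tested, 24 were called higher and 8 lower. The glial glutamate carrier Slc1a2 averaged 820.0 ± 221 TPM in brain and 0.359 ± 0.628 TPM in lymphocytes, Slc1a3 311 TPM in brain and 0.124 TPM in lymphocytes, and the GABA carrier Slc6a11 202 ± 183 TPM in brain and under 0.1 TPM in lymphocytes (SD, n = 3 and 16). Glul rose by 5.05 ± 0.15, and Atf4 fell by 1.29 ± 0.31 (170.0 TPM in brain and 323 TPM in lymphocytes, edgeR adjusted p = 0.001). Neuron markers summed to 2998 to 6728 TPM and astrocyte markers to 603, 3133 and 655 TPM in putamen, medulla oblongata and sensorimotor cortex, and the astrocyte sums had the same order of regions as Slc7a10. Their part in the Slc7a10 levels was not tested.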

How the data were processed

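The deposited tables of 22 poly(A) RNA-seq libraries give for each gene 3 values named in the file headers. Deposited by the authors were an expected count (estimated reads per gene, not normalized), a TPM (scaled by the authors for transcript length and to a constant sum per library) and an FPKM (not used). The tools in the submitters' processing notes are bedtools, CASAVA 1.8.2, RSEM and STAR, and the build is mm10. Of counts above 0, 86.1% were whole (within 1e-09), and the rest were rounded. Levels and size rules used TPM with a pseudocount of 1. Counts were fitted with edgeR 4.0.16 under R 4.3.3 (quasi-likelihood test, TMM scaling, filterByExpr, Benjamini-Hochberg over all genes tested, threshold 0.05), and fits were tested on simulated data. One fit took 8 uncultured T libraries (population, MUT label), another 16 lymphocyte libraries (lineage, culture), and the last these and the 3 brain regions. Alternatives were RLE size factors, no count filter, DESeq2 1.42.0, limma 3.58.1 on log2(TPM + 1), a pseudocount of 0.1, a minimum TPM of 1, a size of 2, TMM-scaled CPM and each library left out. The 10 genes and all lists were chosen with earlier results of these data known. Named besides the 10 genes were called list genes (at most 8 per list and comparison by size of change, with at least 5 TPM), Atf4, Myc, Srr and Slc43a2, and the 3 genes most alike to each (at least 10 TPM in some library). Some genes that this rule names are not reported here. Promoters came from RefSeq (GRCm38.p6).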

Additional observations from a re-analysis of the deposited data

Results flagged for a closer look

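Values of Slc7a10 and Slc7a5 for MUT minus unmarked ran in opposite directions in the Tfh and Tfr pairs, each of 1 library against 1, and the difference between pairs was not tested. On the log2(TPM + 1) scale Slc7a10 differed by -1.18 in Tfh (13.8 TPM in Tfh MUT, 32.6 TPM in Tfh) and by 0.76 in Tfr (83.2 TPM in Tfr MUT, 48.6 TPM in Tfr). Slc7a5 differed by 1.37 in Tfh (75.3 TPM in Tfh MUT, 28.6 TPM in Tfh) and by -0.90 in Tfr (44.4 TPM in Tfr MUT, 83.9 TPM in Tfr). Foxp3 differed by -1.04 in Tfh and 0.42 in Tfr. B-cell marker sums were 803 TPM in Tfh MUT, 199 in Tfh, 158 in Tfr MUT and 575 in Tfr. The part of these markers in the Slc7a10 and Slc7a5 values was not tested.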

How the results depend on the processing

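Counts of calls stayed within 1.5 times of the reported count in 125 of 149 settings, and counts by the size rule in 186 of 207. The B minus T difference of Slc7a1, given as a description, ran from -1.63 to -0.02. Fitted differences of 6 transporters changed sign in 13 of 317 settings over the 2 fits. For the MUT label, Slc7a10 (-0.22) ran from -1.26 to 0.84 and Slc7a5 (0.20) from -0.18 to 0.51 with 1 library left out, and Slc1a4 (0.01) from -0.12 to 0.20, with -0.03 by limma. For B minus T, Slc1a5 (-0.17) was 0.03 by limma and ran from -0.41 to 0.09, Slc38a1 (0.28) from -0.15 to 0.74 and Slc38a2 (0.05) from -0.26 to 0.39. Transporters called for the MUT label numbered 1 without Tfh MUT and Tfr together, against 0. The B minus T fit of the 10 genes is a description, so no calls are counted for it. In culture, other transporters called numbered 8 (2 higher, 6 lower, but 5 higher and 1 lower without splenic B), with 15 under no filter and 13 by limma. With 1 library left out, response genes called in culture ran from 10 to 22 (21 reported), mTORC1 genes from 3 to 9 (7 reported), enzymes from 5 to 8 (8 reported) and other transporters called between T populations from 1 to 15 (9 reported, and 12 without Tfh MUT and Tfr together, an alternative chosen after seeing the data). The size-rule count for ConA was 4 by TMM-scaled CPM, 0 at a size of 2 and 1 to 2 with 1 library left out. For the B cultures it was 0 at a size of 2. For the brain it was 2 at a minimum TPM of 1, 3 by TMM-scaled CPM and 1 to 3 with 1 library left out, and for Tfr against non-Tfh 1 to 2. The cause of these shifts was not tested. The 16 lymphocyte libraries could not be fitted without LPS+IL4 B, splenic B and ConA together, since lineage and culture then coincide. A population left with 1 library was assumed to vary like the others. No paired analysis was possible because the labels give no replicate numbers that pair libraries, beyond the population term of the MUT fit, which sets each MUT library beside the unmarked one. Several size-rule comparisons have 1 library on a side. Below 3 counts (0.018 to 0.11 TPM for Slc7a10) levels cannot be told from 0.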

Other observations

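In CH12, the response genes did not move together. Chac1 stood at 193 TPM, Trib3 at 144 TPM, Cth (which makes cysteine) at 554.6 TPM and Psat1 at 654 TPM, all above the 16 lymphocyte libraries, while Asns stood at 0.11 TPM, below 15 of those 16. These genes were singled out after their values were seen. The cationic carrier Slc7a3 stood at 113.9 TPM in CH12, against at most 22.7 TPM in lymphocytes, and the ornithine decarboxylase Odc1 at 1763 TPM.

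Back skin had Chac1 at 724 TPM, the highest of the 22 libraries, with Trib3 at 2.68 TPM and Asns at 15.99 TPM. The 3 brain regions had Asns at 96.7 to 98.6 TPM and Trib3 at 0.39 to 1.37 TPM. Rragd, called higher in Tfr than in Tfh, stood at 41.8 to 164 TPM in the brain and at 13.8 TPM in ConA cells, against at most 1.58 TPM in the 7 B libraries.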
